A study of Oryctolagus cuniculus with 8 samples.

Results

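Retinoic acid (RA) is the vitamin A derivative that retinal cells use as a signal, and its level is set by enzymes that make it and enzymes that destroy it. ALDH1A1 and ALDH1A3 are aldehyde dehydrogenases that oxidise retinaldehyde to RA, and CYP26B1 and CYP26C1 are cytochrome P450 enzymes that inactivate RA. In the developing vertebrate retina ALDH1A1 marks the dorsal side and ALDH1A3 the ventral side, with CYP26 enzymes in between. These 4 genes were followed across the diets of the study, as 4 of the 25666 gene rows of the table. They were taken by symbol, each matched 1 row, and they were chosen because their values differed between libraries of this experiment. Their levels and differences are therefore given as a description, without a test.

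RNA was sequenced from 8 dissected retinas of wild-type male Chinchilla rabbits aged about 10 months, after 6 months of feeding. There were 2 retinas for each diet, and the paper does not say whether each was taken whole. Standard chow was the diet of the ND group. The HFD group ate that chow with 10% lard and 0.5% cholesterol, the HSD group ate it with 40% sucrose, and the HFSD group received the same lard and cholesterol together with 35% sucrose, so the sucrose content differed between HSD and HFSD. All levels are in FPKM, which divides the fragments on a gene by gene length and by library depth, so that genes can be compared with each other. The sources do not say that the retinas of a group came from separate animals, so s.d. and P values measure the spread between these retinas only.

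The fragments assigned to genes, recovered from the steps of the FPKM values, summed to between 15223348 and 22293348 per library. Rod genes were high in all libraries (the summed FPKM of 4 rod genes lay between 7300 and 8996), and the tissue label is retina. Levels of marker genes of other tissues differed between retinas. Markers of the pigment epithelium (11 genes) summed to 334 and 249 FPKM on ND and to between 27.8 and 94.0 in the other diets. TTR and RPE65 gave 144 and 119 FPKM of the sum in ND replicate 1. Of its 9 tested genes, 7 lay wholly below ND on HFD, against 13.3% of all genes tested. TYR and MLANA overlapped ND there. Myelin and astrocyte genes (6 genes) summed to 1134 FPKM in ND replicate 1, 614 and 489 on HFD, 191 in HFSD replicate 2 and at most 80.8 in the others. HSD replicate 2 stood apart with 451 FPKM of 7 muscle genes, against at most 4.44 elsewhere. In RNA from dissected tissue, fewer cells of a type and less RNA per cell cannot be told apart.

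ALDH1A1 was low in every retina from a sucrose diet. Its FPKM was 13.8 and 67.5 in the ND retinas and 47.8 and 53.4 in the HFD retinas. It was 1.16 and 3.79 in the HSD retinas and 1.68 and 5.52 in the HFSD retinas. The 4 sucrose retinas (1.16 to 5.52) thus lay below all 4 retinas without sucrose (13.8 to 67.5), while HFD lay inside the range of ND.

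Group means of ALDH1A1 were 40.7±38.0 on ND, 50.6±3.95 on HFD, 2.47±1.86 on HSD and 3.60±2.71 FPKM on HFSD (mean±s.d., n=2 each). On the scale of the study, the ratio of group means after adding 1 FPKM to each, HSD stood at 0.0833 and HFSD at 0.110 of ND, HFD at 1.24, and HFSD at 0.0892 of HFD. With 1 library left out, the HSD ratio ran from 0.0507 (without ND replicate 1) to 0.235 (without ND replicate 2), that of HFSD from 0.0644 (without HFSD replicate 2) to 0.311 (without ND replicate 2) and that of HFSD to HFD from 0.0520 (without HFSD replicate 2) to 0.126 (without HFSD replicate 1). The difference between both sucrose diets and both diets without sucrose was −3.47 (s.e. 0.52) in log2(FPKM+1). Among protein-coding genes, ALDH1A1 ranked above 92.5% in ND replicate 2 and above 40.4% in HSD replicate 1. Counting error was small beside this spread. Behind the lowest value stood 99 fragments, with an exact Poisson 95% interval of 0.941 to 1.41 FPKM, and behind the highest 6483 fragments. The ND retinas themselves differed by 4.89 times, and without ND replicate 1 the small excess of HFD over ND (0.69 in log2, a ratio of 1.24) became −0.41, while without ND replicate 2 the ratio became 3.48.

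ALDH1A3, the other RA-making dehydrogenase, was highest in HSD. Its FPKM was 6.76 and 0.194 on ND and 5.06 and 2.34 on HFD. It was 11.9 and 13.9 on HSD and 8.76 and 5.61 on HFSD. The HSD retinas exceeded all 6 others, the HFSD retinas exceeded both HFD retinas, and HFSD replicate 2 lay below ND replicate 1.

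Group means of ALDH1A3 were 3.47±4.64 on ND, 3.70±1.92 on HFD, 12.9±1.41 on HSD and 7.19±2.23 FPKM on HFSD (mean±s.d., n=2 each). ND and HFD did not differ beyond their spread, while HFSD lay above HFD and HSD above HFSD with no overlap. The ratio to ND was 1.05 for HFD, 3.10 for HSD and 1.83 for HFSD, and HFSD stood at 1.74 of HFD. ND replicate 2, with 24 fragments and an interval of 0.124 to 0.288 FPKM, set much of the contrast with ND. Without it, the difference of HFSD from ND fell from 1.40 to 0.05 in log2 and that of HSD from 2.18 to 0.83, while that of HFD turned from 0.56 to −0.79. The ND retinas differed by 34.8 times in ALDH1A3, more than any other pair of retinas on the same diet in any of the 4 genes.

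**Figure D1:**
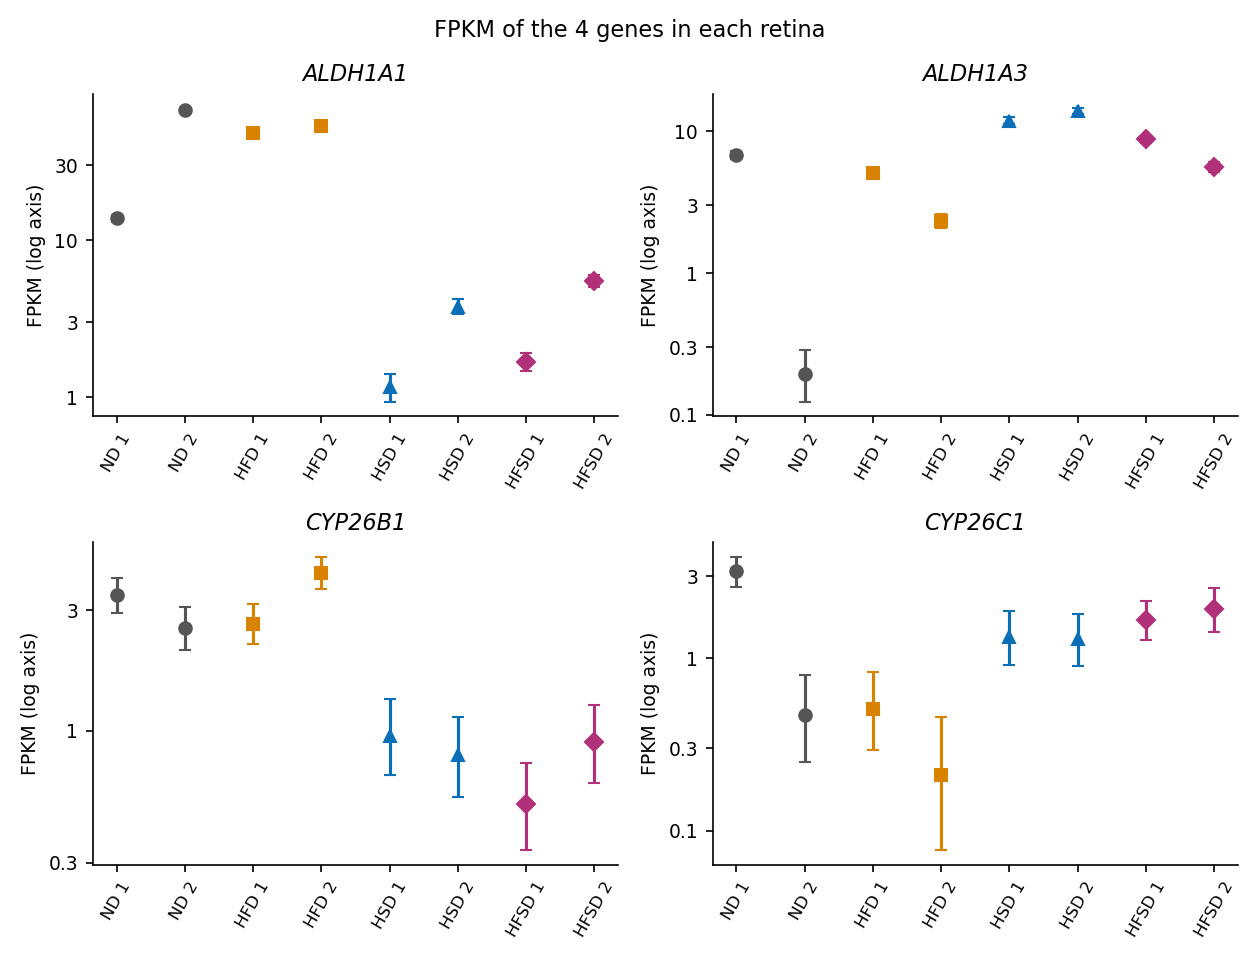
FPKM (log axes) of ALDH1A1, ALDH1A3, CYP26B1 and CYP26C1 in each of the 8 retinas, coloured by diet, with exact Poisson 95% intervals as bars (counting error only; hidden by the symbol where small). ALDH1A1 and CYP26B1 were lower in the 4 sucrose retinas than in the other 4, while ALDH1A3 and CYP26C1 had 1 ND retina at or above some or all sucrose retinas.

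The balance between the dehydrogenases followed from these levels. ALDH1A3 made up 32.9% and 0.286% of the summed FPKM of ALDH1A1 and ALDH1A3 on ND, 9.57% and 4.21% on HFD, 91.1% and 78.6% on HSD, and 83.9% and 50.4% on HFSD. ALDH1A3 was thus the lower of the pair in the 4 retinas without sucrose and the higher in the 4 retinas with it, although only just so in HFSD replicate 2. The summed FPKM of the pair was 20.6 and 67.7 on ND, 52.8 and 55.7 on HFD, 13.0 and 17.6 on HSD and 10.4 and 11.1 on HFSD. The sum therefore also lay lower in every sucrose retina. ALDH1A2, the related RA-making dehydrogenase best known from other embryonic tissues, was at or below 0.411 FPKM in all 8 retinas and was too low to be tested.

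CYP26B1, which inactivates RA, separated the diets as ALDH1A1 did. Its FPKM was 3.44 and 2.56 on ND and 2.66 and 4.23 on HFD. It was 0.958 and 0.801 on HSD and 0.511 and 0.903 on HFSD. All 4 sucrose retinas (0.511 to 0.958) lay below all 4 retinas without sucrose (2.56 to 4.23), and HFD overlapped ND.

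Means of CYP26B1 were 3.001±0.624 on ND, 3.45±1.11 on HFD, 0.879±0.111 on HSD and 0.707±0.277 FPKM on HFSD (mean±s.d., n=2 each). Relative to ND the ratio was 1.11 for HFD, 0.470 for HSD and 0.427 for HFSD, and HFSD stood at 0.384 of HFD. Adding 1 FPKM compresses the change of so low a gene. The unshifted FPKM of the sucrose retinas had a geometric mean of 0.244 times that of the others. The sucrose values rested on 27 to 35 fragments per library and the others on 105 to 179. Even so, the exact Poisson 95% intervals did not touch: the highest upper bound with sucrose was 1.33 and the lowest lower bound without it 2.09 FPKM. These intervals hold counting error only, not the spread between retinas, and the gene was chosen with its values known.

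CYP26C1, from the same enzyme family, followed neither CYP26B1 nor a single diet. Its FPKM was 3.20 and 0.469 on ND and 0.512 and 0.210 on HFD. It was 1.34 and 1.30 on HSD and 1.68 and 1.94 on HFSD. The HSD and HFSD retinas lay between the widely spaced ND values, as did HFD replicate 1, so all 3 enriched diets overlapped ND. Both HFSD retinas exceeded both HSD retinas, and the HSD retinas exceeded both HFD retinas. The exact Poisson intervals of the HFSD retinas overlapped those of the HSD retinas.

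The mean of CYP26C1 was 1.83±1.93 on ND, 0.361±0.213 on HFD, 1.32±0.0290 on HSD and 1.81±0.185 FPKM on HFSD (mean±s.d., n=2 each). The ratio to ND was 0.480 for HFD, 0.817 for HSD and 0.992 for HFSD, and HFSD stood at 2.07 of HFD. These are thin values, from 6 fragments in HFD replicate 2 (interval 0.0771 to 0.457 FPKM) to 98 in ND replicate 1. The direction of HSD and HFSD against ND depended on which ND retina was kept, and the difference of HFD from ND went from −0.88 in log2 to −0.12 without ND replicate 1. Without ND replicate 1 the difference of HSD from ND moved from −0.10 to 0.66 in log2, and without ND replicate 2 that of HFSD moved from 0.18 to −0.58.

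**Figure D2:**
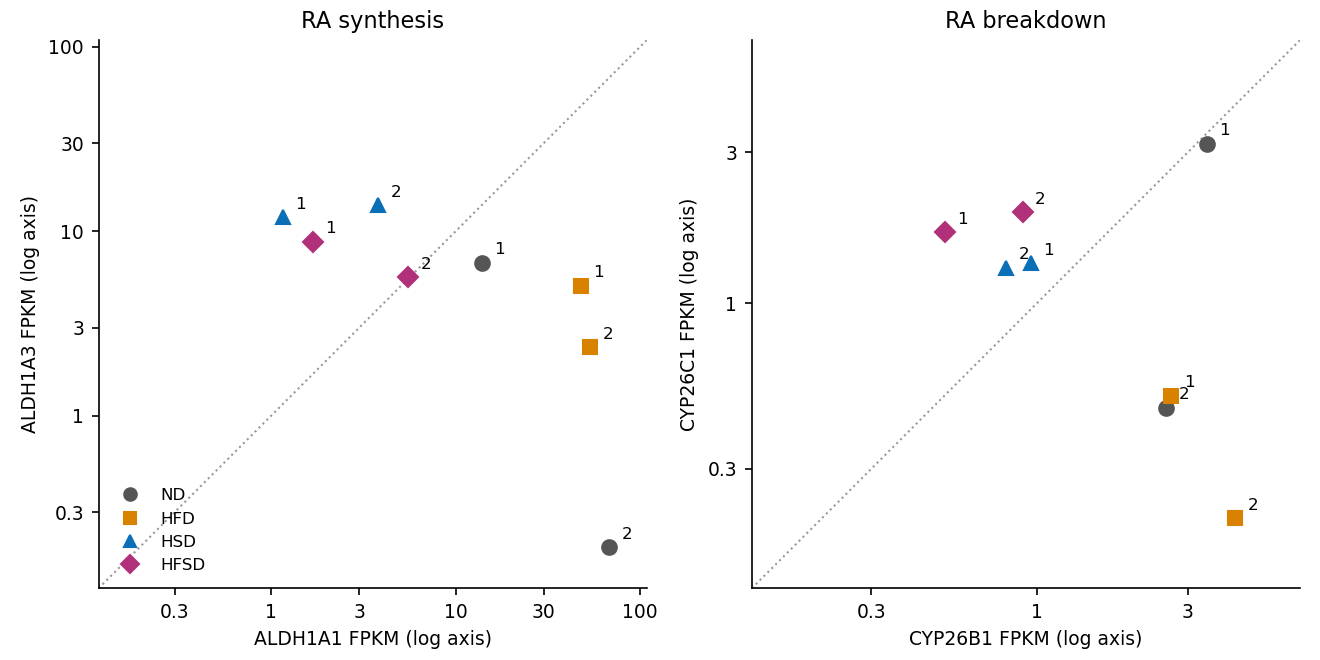
FPKM on log axes of ALDH1A3 against ALDH1A1 (left) and of CYP26C1 against CYP26B1 (right), with 1 point per retina labelled by replicate number and a dotted line where the values are equal. All 4 sucrose retinas lie above the line in both panels, HFSD replicate 2 almost on it at the left (5.61 against 5.52), and all 4 others lie below it, ND replicate 1 close to it at the right (3.20 against 3.44). At the right, the Poisson intervals of CYP26B1 and CYP26C1 overlapped in both HSD retinas and in ND replicate 1.

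Within the CYP26 pair the ratio of CYP26B1 to CYP26C1 was 1.08 and 5.46 on ND, 5.20 and 20.2 on HFD, 0.717 and 0.618 on HSD and 0.304 and 0.465 on HFSD. CYP26B1 was thus the higher by FPKM in every retina without sucrose and CYP26C1 in every retina with it. In both HSD retinas and in ND replicate 1 this order lay within counting error, since the exact Poisson intervals overlapped. For CYP26B1 and CYP26C1 they were 0.667 to 1.33 and 0.920 to 1.88 FPKM in HSD replicate 1 (35 and 33 fragments). They were 0.548 to 1.13 and 0.902 to 1.80 in HSD replicate 2, and 2.92 to 4.03 and 2.60 to 3.90 in ND replicate 1. The summed FPKM of CYP26B1 and CYP26C1 moved less, from 3.03 to 6.64 without sucrose and from 2.10 to 2.85 with it. Dividing the dehydrogenase sum by the CYP26 sum gave 3.10 and 22.4 on ND, 16.7 and 12.5 on HFD, 5.68 and 8.42 on HSD and 4.76 and 3.91 on HFSD. This ratio was lower in the sucrose retinas than in HFD, and ND replicate 1 had the lowest of all.

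CYP26A1, the remaining RA-inactivating enzyme of the family, is the direct neighbour of CYP26C1 in the RefSeq annotation of the rabbit assembly mOryCun1.1. Its FPKM was 10.3 and 2.01 on ND, 5.48 and 2.15 on HFD, 4.13 and 3.96 on HSD and 5.08 and 5.20 on HFSD. Like CYP26C1, it was highest in ND replicate 1, and its pairs were closer on the sucrose diets than on the others. It overlapped ND in all diets, with log2 differences of −0.37, −0.20 and 0.08 (s.e. 0.58) and the lowest adjusted P at 0.959, in HSD (limma, Benjamini-Hochberg). All values on the enriched diets lay between the ND values, so the direction of each difference depended on which ND retina was kept.

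Read by comparison, none of the 4 genes lay wholly outside ND in HFD, where 12.5% of the 12204 genes tested lay wholly above it and 13.3% wholly below. In HSD, 2 genes (ALDH1A1 and CYP26B1) lay wholly below ND and 1 (ALDH1A3) wholly above, where the shares over all genes tested were 19.7% and 19.3%. In HFSD, ALDH1A1 and CYP26B1 again lay wholly below ND and none wholly above, against 20.6% and 21.6% of all genes. Between HFSD and HFD all 4 genes separated, 2 down (ALDH1A1, CYP26B1) and 2 up (ALDH1A3, CYP26C1), against 24.7% and 24.9% of all genes. Between the 4 sucrose retinas and the 4 others 2 genes separated, both downward, against 6.48% of all genes downward and 6.39% upward. HFD, HSD and HFSD were all compared with the same ND retinas, so these counts are not independent of each other.

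By the fold limits of the study (a ratio of means, after adding 1 FPKM, above about 1.5 or under 0.65), 1 of the 4 genes was past the limits in HFD (CYP26C1, below), where 0.949% of protein-coding rows were above and 0.809% below. Without ND replicate 1 that ratio of CYP26C1 was 0.926, within the limits, and ALDH1A3 was above in HFD (3.94). Without ND replicate 2, ALDH1A1 was above (3.48) and ALDH1A3 below (0.606) in HFD. In HSD and in HFSD, ALDH1A1 and CYP26B1 were below and ALDH1A3 above. ALDH1A3 in HFSD came within the limits without ND replicate 2 (1.06) or HFSD replicate 1 (1.48). CYP26C1 moved above them without ND replicate 1 in HSD (1.58) and HFSD (1.91), and below them in HSD without ND replicate 2 (0.552). The shares over all rows were 1.53% above and 2.42% below in HSD, and 1.03% above and 2.4% below in HFSD. HFSD against HFD put all 4 past the limits (over all rows 1.92% above, 2.79% below), where ALDH1A3 came within them without HFD replicate 2 (1.35) or HFSD replicate 1 (1.41). From HSD to HFSD, which added fat but also held 35% in place of 40% sucrose, ALDH1A3 was lower (−0.78 in log2) and CYP26C1 higher (0.28). The FPKM values of the pairs did not overlap in either gene. The exact Poisson intervals of CYP26C1 did overlap, reaching up to 1.88 FPKM on HSD and down to 1.28 on HFSD. Its values rested on 33 and 35 fragments on HSD and 60 and 48 on HFSD. ALDH1A1 (0.38) and CYP26B1 (−0.15) overlapped between HSD and HFSD in FPKM. Of all genes tested, 16.2% lay wholly lower and 18.5% wholly higher in HFSD than in HSD.

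The other genes of RA metabolism, transport and action were taken from 5 lists of 51 symbols. Of these, 43 had a row and 34 were high enough to be tested. By limma with Benjamini-Hochberg adjustment over all 12204 genes, 0 of the 34 passed an adjusted P of 0.05 against ND in HFD, in HSD or in HFSD, 0 in HFSD against HFD and 0 between sucrose and no sucrose. The shares over all genes were 0.00819%, 0.0574%, 0.0164%, 0.00819% and 0.344% in that order. The voom method on recovered fragments also called 0 of them in each comparison. At an unadjusted P under 0.05, 0 were higher and 5 lower in HFD (over all genes 1.8% higher and 2.51% lower), 1 higher and 4 lower in HSD (2.7% and 4.51%), 0 higher and 6 lower in HFSD (3.7% and 4.37%), 2 higher and 3 lower in HFSD against HFD (7.96% and 7.17%), and 3 higher and 5 lower with sucrose (9.17% and 9.16%). The median log2 difference of the 34 was −0.08 on HFD, −0.02 on HSD, −0.06 on HFSD, −0.11 in HFSD against HFD and −0.03 with sucrose, where the medians of all genes tested lay within 0.01 of 0. Leaving out 1 library let a single gene pass. LRAT passed in HSD, in HFSD and with sucrose without ND replicate 2, at log2 differences of −2.82, −2.92 and −1.59. It exceeded 1 FPKM only in the ND retinas, of which that fit kept 1, so the spread came from the other diets. TTR passed in the same comparisons without HFSD replicate 1, at −3.27, −4.37 and −2.70, and in HSD without HFSD replicate 2 (−3.27). These fits kept 1 HFSD library.

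Among the enzymes that supply retinaldehyde, RDH10, the main retinol dehydrogenase of RA synthesis, had 8.91 and 11.4 FPKM on ND, 6.67 and 7.36 on HFD, 4.45 and 6.04 on HSD and 5.11 and 3.79 on HFSD. Each enriched diet lay below both ND retinas, and the sucrose retinas lay below all others. Its log2 differences from ND were −0.47, −0.84 and −1.04 (s.e. 0.20) and the difference with sucrose was −0.70, none past the test (adjusted P=0.0954 with sucrose, limma, Benjamini-Hochberg). CYP1B1, a P450 enzyme that can also form RA, had 1.44 and 1.35 FPKM on ND, 0.760 and 1.502 on HFD, 8.26 and 1.63 on HSD and 3.50 and 3.96 on HFSD. The sucrose retinas were all above the others, HSD replicate 2 only just so, and the gene was past the upper fold limit in HSD and HFSD without passing the test (adjusted P=0.194 with sucrose, limma, Benjamini-Hochberg). Its ratio to ND in HSD fell within the limits without HSD replicate 1 (1.10, from 2.48). Abundant retinol dehydrogenases of photoreceptors varied less. RDH12 lay between 175 and 230 FPKM and RDH11 between 35.5 and 49.3 over the 8 retinas. The list of synthesis genes held 8 tested genes, of which 3, 2 and 1 were higher than ND in HFD, HSD and HFSD.

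Genes for binding and transport held the widest differences from ND among the 34 genes, in HFD as well as in HSD and HFSD. STRA6, the cell-surface receptor that takes up retinol, had 3.97 and 3.57 FPKM on ND, 0.493 and 0.688 on HFD, 0.388 and 0.315 on HSD and 0.864 and 0.237 on HFSD. All 6 retinas of enriched diets lay below both ND retinas. The log2 differences were −1.59, −1.82 and −1.65 (s.e. 0.25), with adjusted P=0.505, 0.103 and 0.152 (limma, Benjamini-Hochberg).

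LRAT, which stores retinol as esters, and TTR, which carries retinol in plasma and is abundant in pigment epithelium, were also lower than ND on all 3 diets. TTR had 144 and 88.6 FPKM on ND, 26.9 and 19.998 on HFD, 12.4 and 9.39 on HSD and 21.4 and 4.52 on HFSD. LRAT had 9.29 and 3.13 FPKM on ND, 0.746 and 0.749 on HFD, 0.349 and 0.580 on HSD and 0.609 and 0.155 on HFSD. Neither passed the test against ND (limma, Benjamini-Hochberg, lowest adjusted P=0.177 for TTR and 0.195 for LRAT, both in HFSD). Both genes also stand in the pigment epithelium list, whose summed level was lower in the same retinas (334 and 249 FPKM on ND, at most 94.0 elsewhere). That sum includes both genes, TTR alone giving 144 of the 334 and 88.6 of the 249 FPKM, so it is no separate measure. RPE65, the retinoid isomerase of that epithelium, had between 10.1 and 34.8 FPKM outside ND and 119 and 74.6 on ND. The part of pigment epithelium content in STRA6, LRAT and TTR was not tested.

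CRABP1, which binds RA itself, was among the abundant genes of the lists (100 to 192 FPKM) and its diets overlapped ND, with log2 differences of −0.24, −0.15 and 0.29 (s.e. 0.28). CRABP2, which delivers RA to its receptors, stayed between 0.263 and 1.52 FPKM. RBP4, the plasma carrier of retinol, had 5.75 and 7.74 FPKM on HSD against 4.20 and 5.04 on ND, a log2 difference of 0.45 that did not pass the test (unadjusted P=0.035, limma).

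Receptors of RA and their cofactors showed small differences. Of 12 listed, 11 had a row and all 11 were tested, and none was past the fold limits against ND. RARB, an RA receptor whose own gene is a classical RA target, had 10.9 and 20.8 FPKM on ND, 14.6 and 16.5 on HFD, 17.3 and 16.4 on HSD and 13.5 and 13.2 on HFSD. All values lay inside the range of ND, with log2 differences of 0.03, 0.15 and −0.17 (s.e. 0.25). RARA lay between 42.5 and 57.5 FPKM and RARG between 4.57 and 8.09, each with ND replicate 1 lowest. RXRG, a partner receptor found in cones, was 12.5 and 15.2 FPKM on HFSD against 10.7 and 7.20 on ND, a log2 difference of 0.60 (s.e. 0.26) that did not pass the test (unadjusted P=0.055, limma).

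Genes known to respond to RA in other tissues gave no common direction. Of 9 listed, 8 had a row and 6 were tested, with 4 higher and 2 lower in HFD, 1 higher and 5 lower in HSD and 2 higher and 4 lower in HFSD. RARRES1 varied most, with 8.41 and 0.775 FPKM on ND, 6.42 and 3.69 on HFD, 1.04 and 2.07 on HSD and 1.39 and 2.76 on HFSD. RARRES2, also called chemerin, had 8.78 and 7.01 FPKM on ND and between 5.60 and 6.75 in the sucrose retinas. Its log2 difference with sucrose of −0.38 (unadjusted P=0.0099, limma) did not pass the test. The lowest adjusted P of this list with sucrose was 0.165 (limma, Benjamini-Hochberg). Of all genes, 9.16% were lower with sucrose at an unadjusted P under 0.05.

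**Figure D3:**
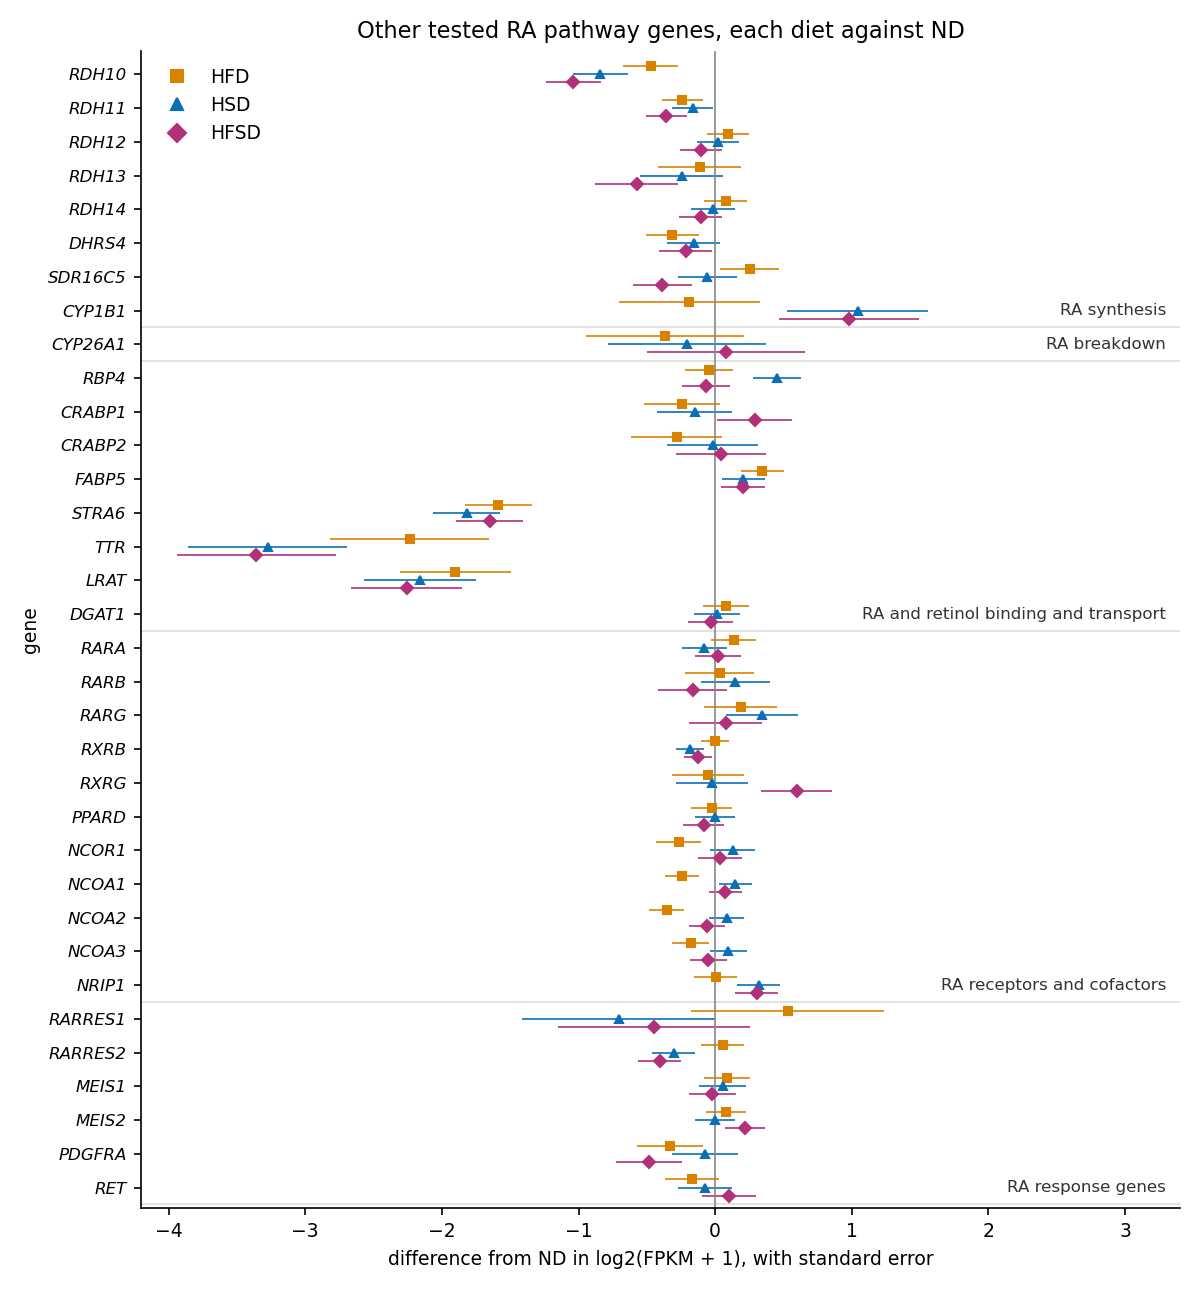
Difference from ND in log2(FPKM+1) for the 34 other tested RA pathway genes, grouped by role, with a point per diet and the standard error of the limma fit as bars. STRA6, TTR and LRAT lie to the left for all 3 diets, CYP1B1 to the right for HSD and HFSD only, and receptors and cofactors lie between −0.36 and 0.60.

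Past the fold limits, the 43 pathway rows gave 0 above and 3 below in HFD (STRA6, LRAT, TTR), and 1 above (CYP1B1) and 6 below (RDH10, BCO1, STRA6, LRAT, TTR, RARRES1) in HSD, with the same 7 genes in HFSD. Of all rows, 0.949% were above and 0.809% below on HFD, against 1.53% and 2.42% on HSD, with 1.03% and 2.4% on HFSD. RARRES1 rested on single libraries, since without ND replicate 1 its ratio was 1.44 in HSD and 1.73 in HFSD, above the limit in HFSD, and without HFSD replicate 1 it was 0.672 in HFSD. BCO1 in HSD came within the limits without ND replicate 1 (0.653). The count in HFD was sensitive to single retinas. It became 6 without ND replicate 1, 7 without ND replicate 2 and 6 without HFD replicate 1. Without ND replicate 2 the count in HFSD became 11. BCO1, which cleaves carotene to retinaldehyde, was below the filter, at 1.20 and 0.821 FPKM on ND and at most 0.582 elsewhere. A test of whether fat and sucrose combined other than additively gave adjusted P=0.999 for STRA6, whose unadjusted P of 0.0013 was the lowest of the 34 (limma, Benjamini-Hochberg).

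Genes with the pattern closest to each enzyme were found as those with the smallest root mean square difference in centred log2(FPKM+1) over the 8 libraries, among tested genes whose range was at least 0.5 times that of the enzyme. For ALDH1A1, 108 genes qualified. The closest was TBX5 (0.538), a transcription factor of the dorsal retina, followed by NR2F2 (0.815), a nuclear receptor also enriched dorsally, S100A1 (0.839), a calcium-binding protein, PXYLP1 (0.843), a phosphatase of proteoglycan synthesis, and EFNB2 (0.852), a dorsal ephrin. TBX5 had 3.27 and 9.85 FPKM on ND, 6.61 and 11.7 on HFD, 0.0175 and 0.0320 on HSD and 0.0848 and 0.560 on HFSD. In the HSD retinas these values stand for 1 and 2 fragments, against 232 to 771 without sucrose. Like ALDH1A1, TBX5 was lowest of the non-sucrose retinas in ND replicate 1 and highest of the sucrose retinas in HFSD replicate 2.

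For ALDH1A3, 255 genes qualified, led by ABCG5 (0.619), a sterol transporter subunit, SST (0.631), the neuropeptide somatostatin, NTS (0.688), the neuropeptide neurotensin, VSTM2A (0.688) and POU4F3 (0.708), a transcription factor of ganglion cells. SST had 0.778 and 0.136 FPKM on ND, 0.201 and 0.132 on HFD, 3.05 and 4.36 on HSD and 2.07 and 1.47 on HFSD. It shared with ALDH1A3 the highest values in HSD.

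For CYP26B1, 1623 genes qualified and the nearest were much closer in log2 terms than for the dehydrogenases, whose own ranges were wider. BAMBI (0.140), a decoy receptor of BMP and activin signalling, had 26.9 and 24.3 FPKM on ND, 23.8 and 31.8 on HFD, 12.9 and 11.7 on HSD and 10.1 and 15.6 on HFSD. SELENOP (0.195), a selenium transport protein, VIP (0.242), a neuropeptide of amacrine cells, APCDD1 (0.248), a Wnt inhibitor, and LCAT (0.255), which esterifies cholesterol, came next.

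For CYP26C1, 1614 genes qualified. EFNA5 (0.226), an ephrin graded across the retina, had 6.34 and 2.59 FPKM on ND, 3.11 and 1.86 on HFD, 6.09 and 5.48 on HSD and 6.09 and 6.74 on HFSD. It shared the high value of ND replicate 1 and the low values of ND replicate 2 and HFD. DLC1 (0.246), KCNA2 (0.261), a potassium channel, DPYSL5 (0.291) and FAR2 (0.291), a fatty acyl reductase, followed. The libraries that define each pattern are shared by all genes, so these are descriptions over 8 values.

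**Figure D4:**
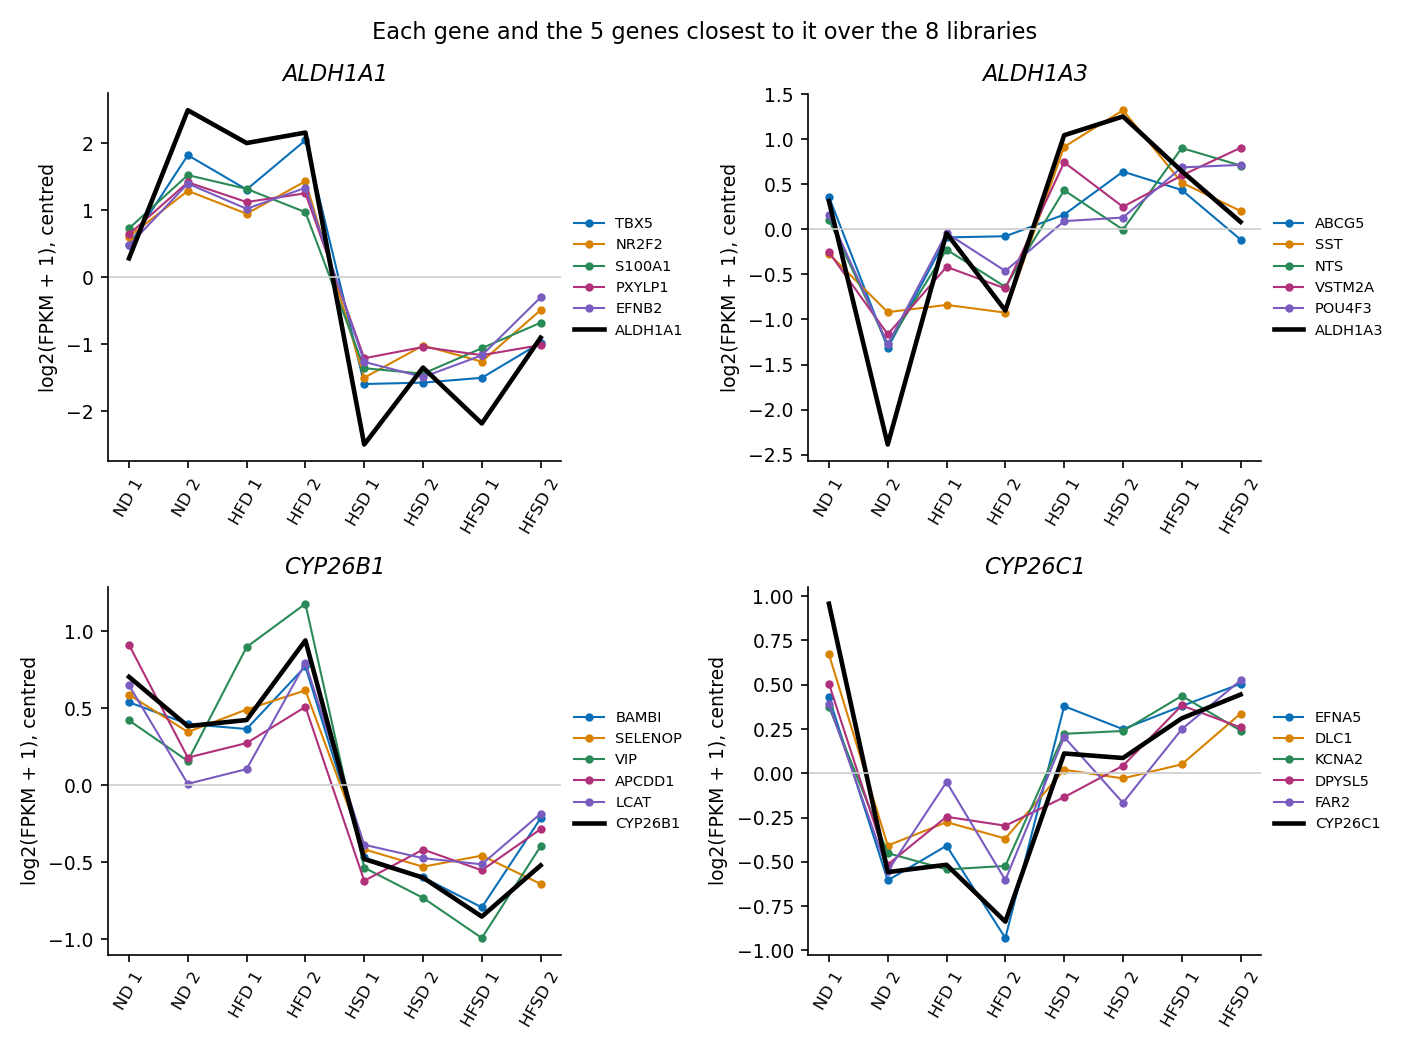
log2(FPKM+1), centred on the mean of the 8 libraries, for each enzyme (black) and the 5 genes closest to it (coloured); lines join libraries only to guide the eye. The genes near ALDH1A1 and CYP26B1 step down between the 4 retinas without and the 4 with sucrose, and those near CYP26C1 share a high ND replicate 1.

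Dorsal and ventral genes were examined as whole lists because ALDH1A1 and ALDH1A3 are dorsal and ventral genes of the embryonic eye. The 7 dorsal genes (TBX2, TBX3, TBX5, BMP4, EFNB1, EFNB2, NR2F2) were all tested. All 7 lay wholly below ND in HSD and in HFSD, where 19.7% and 20.6% of all genes did, and 6 of 7 lay lower in the 4 sucrose retinas than in the 4 others, where 6.48% of all genes did. The list was chosen with results of these data known, so these counts are no independent support. Summed, they gave 61.5 to 70.3 FPKM with sucrose and 89.2 to 137 without it. Their median log2 difference was 0.24 on HFD, −0.67 on HSD, −0.37 on HFSD and −0.66 with sucrose.

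By limma with Benjamini-Hochberg adjustment, 3 of the 7 dorsal genes fell with sucrose, against 0.287% of all genes called lower. The list and the comparison were chosen with results of these data known, so these calls and their P values are no independent support. TBX5 fell by 2.82 in log2(FPKM+1) (s.e. 0.32, adjusted P=0.0271), NR2F2 by 2.14 (s.e. 0.24, adjusted P=0.0274) and EFNB2 by 2.11 (s.e. 0.26, adjusted P=0.0311). TBX5 reached the 1 FPKM of the filter only in the retinas without sucrose, where it was high. The TBX5 difference was −5.10 when 0.1 FPKM was added instead of 1. None passed in HSD or HFSD against ND alone, where the lowest adjusted P of the list was 0.151 and 0.209. With the replicate number as a block, NR2F2 passed in HSD (limma, adjusted P=0.0168), in HFSD (0.0426) and in HFSD against HFD (0.02998). NR2F2 had 9.30 and 15.5 FPKM on ND, 12.1 and 17.3 on HFD, 1.39 and 2.34 on HSD and 1.83 and 3.82 on HFSD. EFNB2 had 12.3 and 24.2 FPKM on ND, 18.4 and 23.1 on HFD, 2.98 and 2.40 on HSD and 3.26 and 6.76 on HFSD. The remaining 4 did not pass the test. TBX2, for example, had between 44.1 and 46.7 FPKM with sucrose and between 46.8 and 63.4 without.

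These calls were close to the threshold. That of TBX5 was lost (adjusted P of 0.0648 to 0.0961) when any HFD, HSD or HFSD library was left out, and those of NR2F2 and EFNB2 (0.0648 to 0.105) when any HFD or HSD library or HFSD replicate 1 was left out. With no filter on low values all 3 calls were lost (adjusted P of 0.144 to 0.157), and voom did not call TBX5 (0.0973) or EFNB2 (0.0536). Over all alternatives the adjusted P ran from 0.00916 to 0.144 for TBX5, from 0.00263 to 0.147 for NR2F2 and from 0.0190 to 0.157 for EFNB2.

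Of 8 ventral genes 7 had a row and 6 were tested. This list too was chosen with results of these data known, so its calls are no independent support. OPN1SW, the short-wave cone opsin whose cones are dense in the ventral rabbit retina, rose. It had 69.1 and 67.6 FPKM on ND, 114 and 80.9 on HFD, 255 and 290 on HSD and 276 and 209 on HFSD. Its log2 difference with sucrose was 1.64 (s.e. 0.14, adjusted P=0.0098, limma, Benjamini-Hochberg), against 0.0574% of genes called higher, and leaving out HSD replicate 2 ended that call (adjusted P=0.0676), as did testing with no filter on low values (0.0844). Against ND the call in HSD (1.98, adjusted P=0.0367, where 0.0246% of genes were called higher) was lost without either ND or either HSD library (adjusted P of 0.0783 to 0.321), with the replicate block (0.0511), by voom (0.0577) and with no filter on low values (0.202). VAX2, the ventral transcription factor, had 20.9 and 39.6 FPKM on ND and between 30.8 and 43.3 with sucrose, without passing the test. EPHB2, a ventral ephrin receptor, had between 8.38 and 10.8 FPKM with sucrose and between 5.91 and 7.75 without (adjusted P=0.123, limma, Benjamini-Hochberg). EPHB3, of the same receptor family, had between 0.687 and 1.21 FPKM with sucrose and between 1.36 and 1.78 without (adjusted P=0.184, limma, Benjamini-Hochberg). VAX1, a relative of VAX2, was listed at 0 in 6 retinas and was not tested. Of the 6 tested ventral genes, 5 had a log2 difference above 0 and 1 (EPHB3) below 0 in HSD, in HFSD and with sucrose. OPN1SW passed the test in HSD and with sucrose but not in HFSD (1.80, adjusted P=0.0703, limma, Benjamini-Hochberg), and no other gene of the list passed in these comparisons. The median with sucrose was 0.27.

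**Figure D5:**
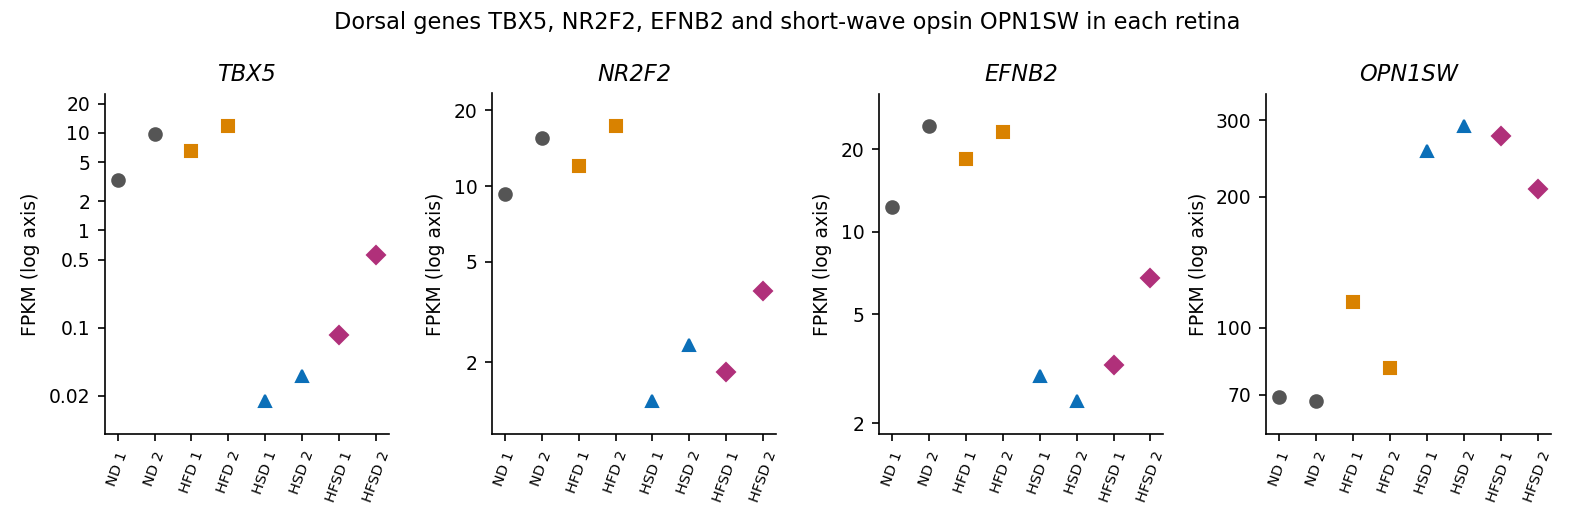
FPKM (log axes) of the dorsal genes TBX5, NR2F2 and EFNB2 and of OPN1SW in each of the 8 retinas, coloured by diet. The dorsal genes are lower and OPN1SW is higher in the 4 sucrose retinas (OPN1SW 209 to 290 FPKM against 67.6 to 114), with HFSD replicate 2 nearest to the retinas without sucrose in all 4 genes.

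Levels of other cell types stood beside these results as follows. The 8 Müller glia genes summed to between 2032 and 2179 FPKM with sucrose and between 2783 and 4007 without. None of the 8 passed the test with sucrose (limma, Benjamini-Hochberg, lowest adjusted P=0.0501, for GLUL), where 0.344% of all genes did. Of the 8, 6 had a log2 difference below 0 and 2 above. In the sucrose retinas 3 lay wholly lower, where 6.48% of all genes did. GLUL, glutamine synthetase, made up much of the sum, with 1489 to 2127 FPKM without sucrose and 722 to 890 with it, whereas SLC1A3, the glial glutamate transporter, had 180 to 203 FPKM in all retinas. The 7 amacrine genes summed to 246 to 263 FPKM with sucrose and 235 to 245 without, the 7 endothelial genes to 124 to 163 and 130 to 162, and the 7 fibroblast and choroid genes to 17.0 to 52.4 and 17.8 to 28.6, the highest in HSD replicate 2. OPTC, opticin of the ciliary body, the single gene of its list with a row, had 11.7 FPKM in ND replicate 2, 37.6 in HFD replicate 1 and at most 0.209 elsewhere. Myelin and astrocyte genes, highest in ND replicate 1 (1134 FPKM), were high in the ND retina with the higher ALDH1A3 and CYP26C1. The part of these in the levels of the 4 enzymes was not tested. Without HSD replicate 2, the retina with muscle transcripts, the log2 differences of HSD from ND were −3.88 for ALDH1A1, 2.08 for ALDH1A3, −1.02 for CYP26B1 and −0.088 for CYP26C1, against −3.31, 2.18, −1.08 and −0.10 with it.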

How the data were processed

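RNA of rabbit retinas was sequenced from 8 libraries in 4 diet groups. The deposited values are FPKM per gene, which the authors computed in R from TopHat2 alignments. Only uniquely placed reads entered, so genes with near-identical copies may be undercounted. The values are not whole numbers, although the table's name speaks of counts. The genome build and strand setting are not given in the sources used here, so no coordinates are printed. Columns were assigned to samples by the library names in the labels, and no value column was left over (0).

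Whole fragments were recovered from the steps of the FPKM values (99.994% of values whole within 0.01), and give counting error only. limma 3.58.1 (R 4.3.3) was run on log2(FPKM+1) in 1 model of all 8 libraries, for the 12204 protein-coding genes that reached 1 FPKM in 2 or more libraries, with Benjamini-Hochberg adjustment and a threshold of 0.05. voom on recovered fragments (limma, with TMM factors from code written for this purpose) called 1, 1, 2, 1 and 20 genes in HFD, HSD, HFSD, HFSD against HFD and sucrose, where limma called 1, 7, 2, 1 and 42. Fold limits were those of the study. The methods were tested on simulated data. The 4 enzymes, the gene lists and the comparisons were chosen with earlier results of these data known. The genes named were the listed genes past a limit or central to their role, and the 5 closest in pattern to each enzyme, with others named after their values were seen. Listed genes without a row (RDH16, DHRS3, ADH4, ADH7, UGT2B7, RBP7, RXRA, HIC1, NR2F1, WFDC1, ZIC1, MSX1, PDE6B, GNAT1) were not analysed here, and a few listed genes are not reported here and stay out of every count over the lists. Neighbouring genes were read from RefSeq (mOryCun1.1) by name.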

Additional observations from a re-analysis of the deposited data

How the results depend on the processing

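The low ALDH1A1 and CYP26B1 of HSD and HFSD kept their direction under every alternative run (a pseudocount of 0.1, rescaling to TPM, median-ratio size factors, voom, the replicate block and leaving out each library in turn). Leaving out libraries gave log2 differences of −4.41 to −2.20 (HSD), −4.03 to −1.82 (HFSD), −4.26 to −2.98 (HFSD against HFD) and −4.02 to −2.91 (sucrose) for ALDH1A1, and −1.24 to −0.92, −1.40 to −1.06, −1.63 to −1.11 and −1.35 to −1.10 for CYP26B1. ALDH1A3 stayed above 0 in these comparisons (0.83 to 3.53, 0.051 to 2.75, 0.41 to 1.26 and 0.84 to 2.19).

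For HFD against ND the leave-one-out range crossed 0 for ALDH1A1 (−0.41 to 1.80), ALDH1A3 (−0.79 to 1.91) and CYP26B1 (−0.12 to 0.40, with −0.022 without ND replicate 2), and lay at −1.63 to −0.12 for CYP26C1. For CYP26C1 it also crossed 0 in HSD (−0.86 to 0.66) and HFSD (−0.58 to 0.94), and lay at 0.89 to 1.22 in HFSD against HFD and 0.098 to 0.86 with sucrose.

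A pseudocount of 0.1 and voom enlarge differences of low genes by construction. ALDH1A3 went from 0.56 to 1.32 and 1.49 on HFD, from 2.18 to 3.19 and 3.38 on HSD and from 1.40 to 2.33 and 2.52 on HFSD. CYP26B1 became −1.65 and −1.75 in HSD, −1.97 and −2.17 in HFSD, −2.14 and −2.32 in HFSD against HFD, and −1.90 and −2.04 with sucrose. CYP26C1 became −1.65 and −1.88 in HFD, 2.13 and 2.36 in HFSD against HFD (1.42 as TPM), 1.09 and 1.21 with sucrose, and changed sign in HSD (0.048 and 0.052).

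Of the other pathway genes, 0 were called under each alternative except 1 library left out, where 0 to 1 were called in HSD, HFSD and with sucrose. The count past the fold limits in HFD rose from 3 to 5 with a pseudocount of 0.1 and as TPM, and lay between 3 and 7 with 1 library left out. With a pseudocount of 0.1 it rose from 7 to 14 in HFSD and from 5 to 12 in HFSD against HFD, and in HFSD it lay between 7 and 11 with 1 library left out.

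Replicate numbers are shared between diets but the labels do not pair the retinas. Differences between replicates 1 and 2 correlated at −0.165 to 0.0813 between diets, and the fit with the replicate block called 0 pathway genes in every comparison. Among TBX5, NR2F2, EFNB2 and OPN1SW it let NR2F2 pass in HSD, HFSD and HFSD against HFD and ended the call of OPN1SW in HSD. CYP26B1 and CYP26C1 rested on 2 retinas a diet and 6 to 179 fragments per library. How small a difference in these genes could have been detected was not tested.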

Other observations

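Genes with the opposite pattern to each enzyme were looked up after their values were seen. Among the 108 genes with a wide enough range, the closest mirror images of ALDH1A1 were PANX3, a pannexin channel (root mean square difference from the sign-reversed pattern 0.903), and ALDH1A3 itself (1.17). PANX3 had 5.12 and 0.814 FPKM in ND, 1.02 and 0.511 on HFD, 20.7 and 3.49 on HSD and 7.37 and 9.25 on HFSD. For ALDH1A3 the closest mirror image was the dorsal ephrin EFNB2 (0.629). For CYP26C1 it was MGARP, a mitochondrial protein, at 0.218, with 14.1 and 52.7 FPKM in ND, 38.0 and 41.4 on HFD, 24.3 and 26.4 on HSD and 17.2 and 15.6 on HFSD. For CYP26B1 it was SLC17A8, the vesicular glutamate transporter of a class of amacrine cells, at 0.268, with 6.56 and 5.93 FPKM in ND, 7.64 and 5.98 on HFD, 12.3 and 12.6 on HSD and 14.4 and 9.85 on HFSD.

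The ND retinas differed from each other along the same genes that separated the diets. ND replicate 1 had less ALDH1A1, TBX5, NR2F2 and EFNB2 and more ALDH1A3 and CYP26C1 than ND replicate 2, which is the direction of the sucrose retinas for the first 4 genes and for ALDH1A3. It departed from them in CYP26B1 (3.44 against 2.56 FPKM), and the ND retinas were close to each other in OPN1SW (69.1 against 67.6 FPKM).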
